A study of Mus musculus with 16 samples.

Results

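Organoid lines grown from metastases of serosal sites were compared with lines grown from metastases of visceral organs. A line was taken as serosal where its site label was peritoneum or diaphragm, and as visceral where it was liver, lung or ovary. The site labels do not say whether a lesion lay on a surface or inside an organ, nor by which route it arose. This choice gave 9 of the 16 lines of the series, with 5 serosal and 4 visceral lines, and no primary tumor line entered. All lines were epithelial cultures of pancreatic ductal adenocarcinoma from the KPC mouse model, in which Cre switches on cancer-driving mutations, mutant Trp53 among them, in the pancreas. The strain label was C57BL6/J for every line, and the labels gave neither the alleles of single mice nor their age.

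The serosal lines were M6 (peritoneum, mouse 3), M10 (peritoneum, mouse 4), M3P (peritoneum, mouse 2), M15 (diaphragm, mouse 5) and M29 (diaphragm, mouse 6). The visceral lines were M1 (liver, mouse 1), M28 (liver, mouse 6), M16 (lung, mouse 5) and M30 (ovary, mouse 6). Per the labels, every line grew in domes of Matrigel, a basement membrane gel, under one medium that held EGF, FGF-10, Noggin, R-spondin and the TGF-beta receptor inhibitor A83-01. Each library is 1 culture of 1 line, and the cells had left the host tissue before RNA was taken. Only mice 5 and 6 gave lines of both classes. The 3 peritoneal lines and M1 came from mice with no metastasis line of the other class, so site and mouse cannot be told apart for these 4 lines.

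Pancreatic cancer reaches the peritoneum and the diaphragm when shed cells attach to the mesothelium, the flat cell layer that covers serosal surfaces. Liver and lung metastases are seeded mainly through the blood. Mesothelin, the mucin Muc16 and CD44 are surface molecules known from attachment of tumor cells to mesothelium, and integrins bind the matrix beneath it. The classical subtype of pancreatic cancer is marked by endodermal and gut-type genes, and the basal subtype by squamous genes.

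Total expected counts per library ran from 24624420 in M15 to 47945773 in M1. Transcripts of 3 genes that collect ribosomal RNA reads held 72.7% of the counts of M15, between 0.0190% and 18.5% in the other serosal lines and between 0.0185% and 12.3% in visceral lines. M15 was left with 6721958 counts outside these genes, against 31970986 to 46896902 in the other 8 lines, so its values carry the largest counting error. The share averaged 24.4% ± 27.97 in serosal lines (SD, n = 5) and 4.67% ± 5.37 in visceral lines (SD, n = 4; exact two-sided permutation p = 0.0952). Summed markers of duct or tumor epithelium ran from 4230 to 7984 CPM (counts scaled to a fixed library total) in serosal lines and from 4229 to 8243 CPM in visceral lines. Immune markers summed to at most 4.37 CPM in serosal and 4.97 CPM in visceral lines, and skeletal muscle markers to at most 3.80 CPM in serosal and 5.01 CPM in visceral lines. Fibroblast markers reached 9.91 CPM in M3P and 38.9 CPM in M1, almost all of it Pdpn, the gene of podoplanin. Hepatocyte markers reached 371 CPM in M29 and 324 CPM in M30, nearly all of it Apob. Of the 12 listed, 4 passed the count filter, and Alb, Fgb and Cyp2e1 had 0 expected counts in M29 and M30. Lung epithelium markers summed to at most 42.2 CPM in serosal lines (M3P) and 15.1 CPM in visceral lines (M30), with 6.08 CPM in the lung line M16. Ovary and oviduct markers summed to at most 9.82 CPM in serosal lines (M3P) and 6.44 CPM in visceral lines (M30). In these bulk libraries, fewer cells of a type and less RNA per cell cannot be told apart. Y-linked transcripts were found in 2 serosal and 2 visceral lines and Xist in the other 3 and 2, with no conflict between lines of 1 mouse.

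No gene passed the threshold between serosal and visceral lines. edgeR's quasi-likelihood test covered 15407 genes and called 0 (0%) at a Benjamini-Hochberg adjusted p of 0.05. The lowest adjusted p was 0.929. At an unadjusted p under 0.05 there were 472 genes (3.06%), of which 287 (1.86%) were higher and 185 (1.2%) lower in serosal lines. The share of 3.06% is below that of an even spread of p. DESeq2 called 2 genes, both higher in serosal lines, and had 611 genes at an unadjusted p under 0.05. limma with mouse as a random effect called 0, with 676 genes at an unadjusted p under 0.05. Leaving out 1 line left the edgeR count at 0 in all 9 cases, while the number at an unadjusted p under 0.05 was 977 without M29 and 264 without M28. On log2(TPM + 1), a scale that shifts the median of all genes by -0.365, 30 of 294 genes at that level were higher in serosal lines. The 9 lines came from 6 mice, and this test took them as independent. Only M28 and M30 share both a mouse and a class. M15 and M16 of mouse 5, and M29 with M28 and M30 of mouse 6, join the classes. The test without a mouse term ignored this pairing.

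The intervals set the size of difference that these 9 lines leave possible. The 95% interval of the serosal over visceral ratio lay within a 2-fold change in either direction for 9443 genes, or 61.3% of those tested. It lay within a 4-fold change for 86.9%. Among the 8384 genes with a mean of at least 10 CPM, 86.3% had an interval within a 2-fold change, and the median half-width was 0.46 on the log2 scale. For the other genes a 2-fold difference was not excluded by the interval.

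**Figure D1:**
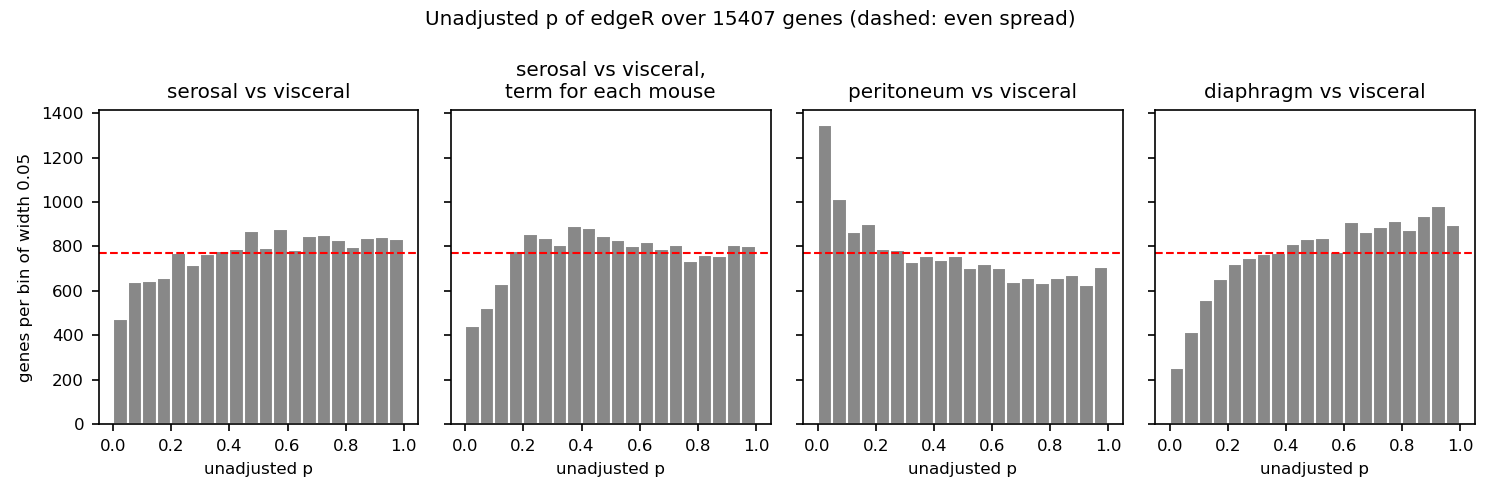
Number of genes (y axis) in each bin of unadjusted edgeR p (x axis) for serosal against visceral lines, the same with a term for each mouse, peritoneal against visceral lines, and diaphragm against visceral lines. The dashed line marks an even spread of p, and the bins under 0.05 hold 472, 443, 1346 and 251 genes.

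Lines of 1 mouse were more alike than lines of 1 class from different mice. Log2 CPM centred on each gene's mean over the 9 lines had a Pearson r across genes of 0.385 between M15 and M16 of mouse 5, of 0.576 between M29 and M28 and of 0.584 between M29 and M30 of mouse 6. These are the 3 pairs that join a serosal and a visceral line of 1 mouse. M28 and M30, both visceral lines of mouse 6, had an r of 0.336. Pairs from different mice averaged -0.196 within a class (15 pairs) and -0.196 between classes (17 pairs). These 2 means differed by less than the spread of the pairs, which ran from -0.381 to 0.126 within and from -0.409 to 0.0825 between classes. Genes are not independent replicates, and the centring makes the average pair negative. The class accounted for 9.34% of the sum of squares of log2 CPM on 1 of 8 degrees of freedom, and the mouse for 83.1% on 5 of 8. On the first principal component, which held 28% of the variance, 0.187% of the spread lay between classes. On the next 3 components, with 22.8%, 14.5% and 10.7% of the variance, the share between classes was 10.5%, 4.19% and 13.4%.

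**Figure D2:**
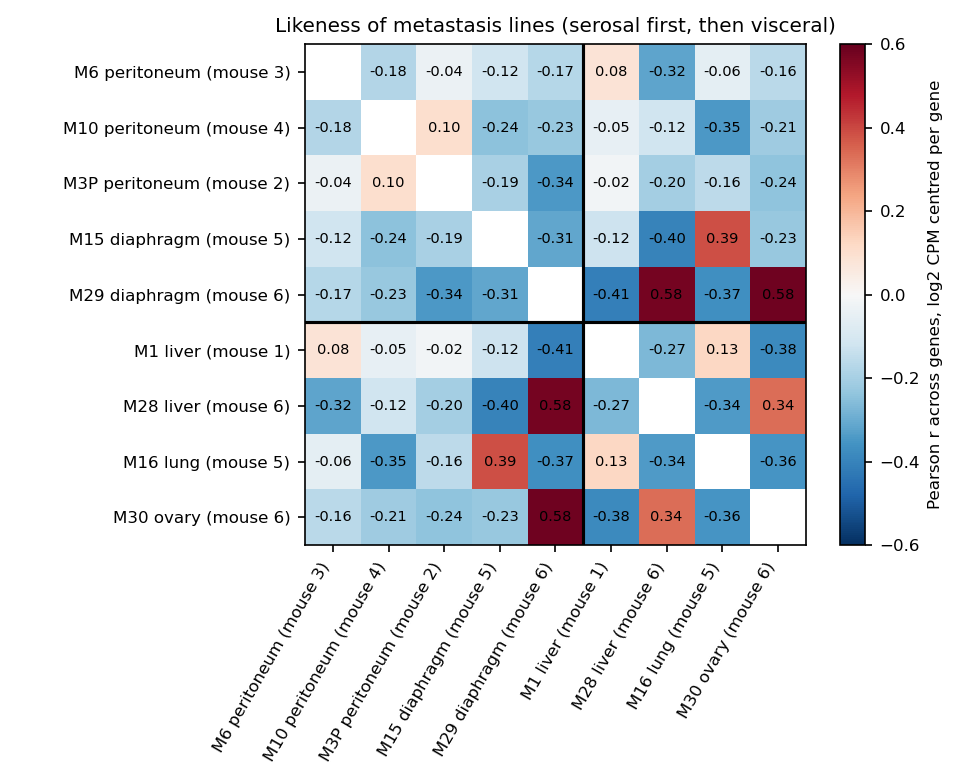
Pearson r across genes between each pair of metastasis lines, with serosal lines before visceral lines on both axes and log2 CPM centred on each gene's mean. The highest values, 0.58, 0.58 and 0.39, join M29 with M28 and M30 and M15 with M16, across the line that divides the classes.

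Sult1b1 and Papss2, both genes of sulfate transfer, stood first among the genes with higher levels in every serosal line. Sult1b1 encodes a cytosolic sulfotransferase that acts on phenols and thyroid hormone (chromosome 5, 87513339 to 87538195, GRCm38). It had 1.56, 3.33, 1.81, 1.29 and 1.16 CPM in M6, M10, M3P, M15 and M29, against 0.0488, 0.207, 0.139 and 0.222 CPM in M1, M28, M16 and M30. The lowest serosal line thus exceeded the highest visceral line, but the visceral values rest on 3, 11, 7 and 9 expected counts and that of M15 on 11. The log2 fold change was 3.57 ± 0.54 (SE, 95% interval 2.36 to 4.77) and its edgeR adjusted p was 0.929. DESeq2 gave an adjusted p of 2.75e-06.

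Papss2 encodes the enzyme that makes PAPS, the sulfate donor that sulfotransferases use (chromosome 19, 32595790 to 32667187). It had 60.6, 116, 45.0, 32.7 and 59.0 CPM in M6, M10, M3P, M15 and M29, against 9.98, 14.6, 10.4 and 29.97 CPM in M1, M28, M16 and M30. The classes did not overlap, with M15 and M30 lying closest. The log2 fold change was 1.95 ± 0.44 (SE), with an edgeR adjusted p of 1 and a DESeq2 adjusted p of 0.032. Within mice, in a fit with a term for each mouse, the log2 fold change was 2.70 ± 0.45 for Sult1b1 and 1.51 ± 0.31 for Papss2 (SE). The rule that chose these genes, by classes fully apart, had already fixed this direction. In mouse 5 the level of Papss2 was 32.7 CPM in M15 and 10.4 CPM in M16, and in mouse 6 it was 59.0 CPM in M29, against 14.6 CPM in M28 and 29.97 CPM in M30.

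**Figure D3:**
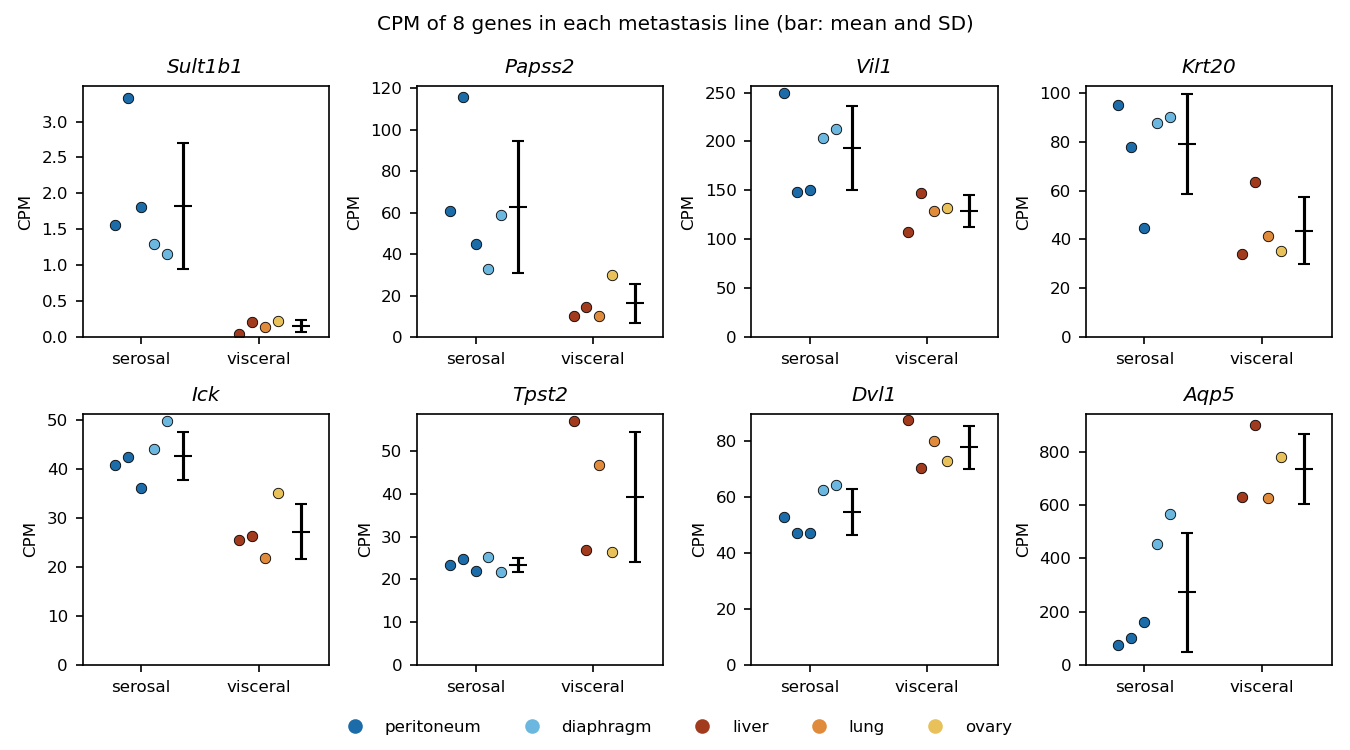
CPM (y axis, from 0) of 8 genes in each serosal line (left) and each visceral line (right), coloured by site, with the class mean and SD as a bar beside the points. Sult1b1, Papss2, Vil1 and Ick lie higher in every serosal line, Tpst2, Dvl1 and Aqp5 lower, and the classes overlap for Krt20.

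With this pair counted, 67 genes (0.435% of those tested) had every serosal line above every visceral line and 71 (0.461%) every serosal line below. The 12 leading genes of each direction, ranked by unadjusted p because none passed the threshold, had p between 6.03e-05 and 0.0163, and an edgeR adjusted p of 1 in all but Sult1b1. Ick, a kinase of the primary cilium, had 40.8, 42.5, 36.1, 44.0 and 49.9 CPM in M6, M10, M3P, M15 and M29, against 25.5, 26.3, 21.9 and 35.2 CPM in M1, M28, M16 and M30. Its log2 fold change was 0.65 ± 0.16 (SE). It averaged 42.7 ± 5.00 CPM in serosal lines (SD, n = 5) and 27.2 ± 5.62 CPM in visceral lines (SD, n = 4), and M30 lay just below M3P.

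Tob1, which restrains cell division, averaged 26.7 ± 6.22 CPM in serosal and 16.8 ± 2.31 CPM in visceral lines. Cnnm4, a magnesium transporter, averaged 61.6 ± 5.26 CPM in serosal and 45.1 ± 5.60 CPM in visceral lines. Calml4, a calmodulin-like protein of the intestinal brush border, averaged 26.5 ± 6.01 CPM in serosal and 15.7 ± 4.04 CPM in visceral lines. Per2, a repressor of the circadian clock, averaged 11.6 ± 2.83 CPM in serosal and 6.81 ± 1.00 CPM in visceral lines (SD, n = 5 serosal and 4 visceral lines for these 4 genes). These log2 fold changes were between 0.45 and 0.77.

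Several leads were highest in the peritoneal lines M10 and M3P. Ugt1a7c, a glucuronosyltransferase of drug clearance, had 6.10, 120, 47.3, 7.39 and 6.54 CPM in M6, M10, M3P, M15 and M29, against 0.521, 3.88, 4.54 and 2.27 CPM in M1, M28, M16 and M30. It shares exons with other Ugt1a genes, so its counts are uncertain. Ugt1a6a of the same locus had a log2 fold change of 2.74 with overlapping classes. Rbp4, the plasma carrier of retinol, had 1.68, 16.2 and 5.93 CPM in M6, M10 and M3P and 1.17 and 0.969 CPM in M15 and M29, against 0.527 to 0.963 CPM in visceral lines. Rnf152, a ubiquitin ligase of lysosomes, had 9.28 CPM in M10 and 0.627 to 2.74 CPM in the other serosal lines, against 0.195 to 0.617 CPM in visceral lines. Without M10 the log2 fold change was 1.74 for Rbp4 and 1.74 for Rnf152, against 2.82 and 2.83 with it. Syt7, a calcium sensor of exocytosis, and Spats2l had log2 fold changes of 1.46 and 2.15 at levels of at most 3.65 CPM in any line.

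The 12 leading genes with lower levels in serosal lines differed by less. Their log2 fold changes were between -0.35 and -0.75 apart from Slfn5 at -1.34, a Schlafen family gene with at most 2.09 CPM. Dvl1, a dishevelled protein that passes on Wnt signals, had 52.9, 47.2, 47.0, 62.3 and 64.3 CPM in M6, M10, M3P, M15 and M29, against 87.7, 70.5, 79.9 and 73.0 CPM in M1, M28, M16 and M30. Its log2 fold change was -0.51 ± 0.14 (SE). The peritoneal lines were lowest and the diaphragm lines lay between them and the visceral lines.

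Icmt, which methylates prenylated proteins, averaged 42.3 ± 6.13 CPM in serosal and 59.8 ± 7.17 CPM in visceral lines. Polg, the polymerase of mitochondrial DNA, averaged 48.4 ± 8.65 CPM in serosal and 69.4 ± 3.45 CPM in visceral lines. Blm and Rad54l, which act in homologous recombination, averaged 22.6 ± 2.74 and 22.4 ± 3.98 CPM in serosal lines, against 31.5 ± 3.66 and 31.2 ± 2.90 CPM in visceral lines. Mbd3 and Rbbp4, both subunits of the NuRD chromatin complex, averaged 30.7 ± 2.91 and 120 ± 7.92 CPM in serosal lines, against 39.0 ± 0.662 and 161 ± 31.5 CPM in visceral lines (SD, n = 5 serosal and 4 visceral lines for each of these genes). The leads also held the tetraspanin Tspan4, the tRNA splicing subunit Tsen34 and B3galt6, which builds the linker of proteoglycans, with log2 fold changes of -0.67, -0.44 and -0.68.

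Tpst2, a Golgi enzyme that sulfates tyrosines with PAPS, had 23.3, 24.9, 21.9, 25.2 and 21.8 CPM in M6, M10, M3P, M15 and M29, against 57.0, 26.9, 46.7 and 26.4 CPM in M1, M28, M16 and M30. M28 and M30 lay just above the serosal lines, and M1 and M16 held the difference. Its log2 fold change was -0.75 ± 0.23 (SE).

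The genes with fully separated classes were unevenly placed in the genome. Of the 71 with lower serosal levels, 26 lay on chromosome 4, which carried 5.86% of the genes tested, and 16 on chromosome 7, which carried 7.64%. Of the 67 with higher serosal levels, 0 lay on chromosome 4 and 15 on chromosome 1, which carried 6.15%. Among the leads, Dvl1, Icmt, Rbbp4, B3galt6 and Rad54l lie on chromosome 4, and Tspan4, Polg, Blm and Tsen34 on chromosome 7. Spats2l, Cnnm4, Ugt1a7c, Rnf152 and Per2 lie on chromosome 1. Neighbouring genes that share a shift are not independent.

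The median level over all genes of a chromosome showed the same shift in chromosome 4. Over its 772 genes with a mean of at least 1 CPM, the median centred log2 CPM was -0.16, -0.34, -0.27, 0.098 and 0.090 in M6, M10, M3P, M15 and M29, against 0.22, 0.16, 0.14 and 0.071 in M1, M28, M16 and M30. The 3 peritoneal lines were low, and both diaphragm lines fell among the visceral values. The class difference was -0.27 (exact two-sided permutation p = 0.0476, 0.794 adjusted over 20 chromosomes), and 0 of 20 chromosomes passed. The smallest p these groups allow is 0.0159. Of the 903 chromosome 4 genes tested, 735 (81.4%) had a negative log2 fold change, against 48.9% of all genes tested. Chromosome 3 went the other way, with 13.9% of its genes negative and a class difference of 0.27 (exact permutation p = 0.143). DNA copy number was not analysed here, and its part in these shifts was not tested.

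**Figure D4:**
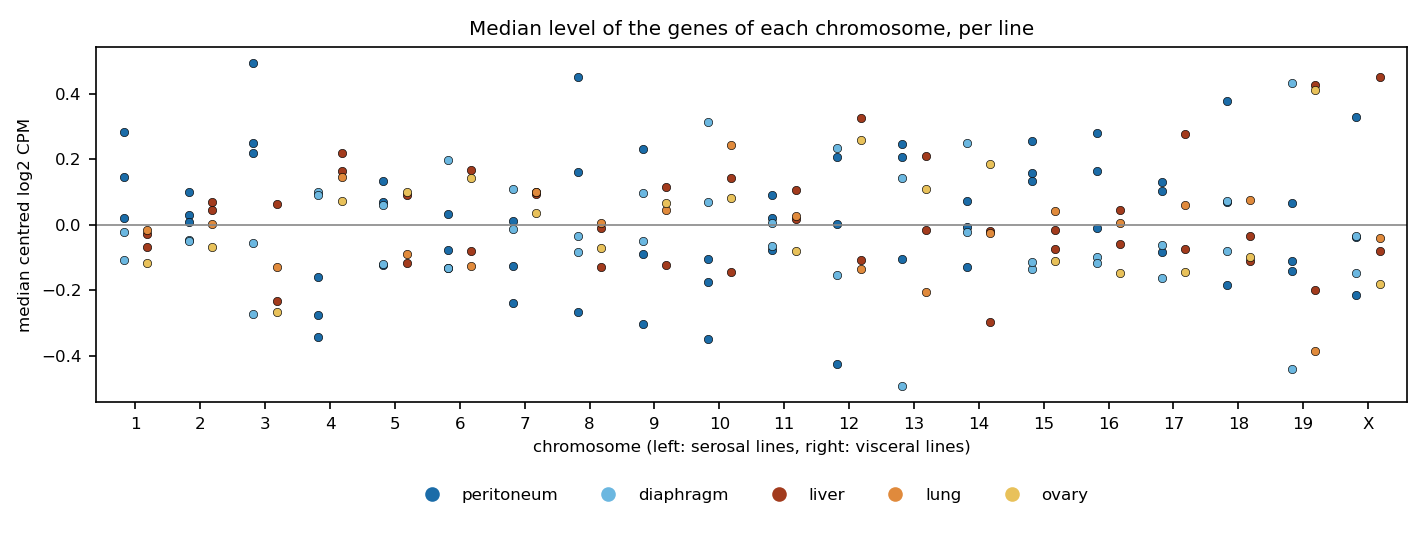
Median centred log2 CPM of the genes of each chromosome (y axis) in each serosal line (left of each pair) and visceral line (right), coloured by site. On chromosome 4 the peritoneal lines lie between -0.34 and -0.16, while the diaphragm lines, at 0.090 and 0.098, lie among the visceral lines.

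Genes known from attachment to mesothelium were divided between both directions, and none passed the threshold. Of 16 tested members of the adhesion and surface mucin list, 9 had a positive and 7 a negative log2 fold change, with a median of 0.05 against 0.01 over all genes tested, and 0 were called (background 0%). Muc4 was higher and Msln lower at an unadjusted p under 0.05 (background 1.86% and 1.2%). Msln, the gene of mesothelin, was lower on average in serosal lines. It had 347, 290, 321, 294 and 702 CPM in M6, M10, M3P, M15 and M29, against 675, 698, 623 and 523 CPM in M1, M28, M16 and M30. M29 was the highest of all 9 lines, and the other serosal lines lay below every visceral line. The log2 fold change was -0.69 ± 0.27 (SE, edgeR adjusted p = 1). Muc16 had between 0 and 3 expected counts in every line and was below the count filter. Muc4, another membrane mucin, had 3.39, 1.54, 0.953, 2.23 and 0.247 CPM in M6, M10, M3P, M15 and M29, against 0.830, 0.339, 0.418 and 0.444 CPM in M1, M28, M16 and M30, with a log2 fold change of 1.70 ± 0.66 (SE, edgeR adjusted p = 1). Cd44, the hyaluronan receptor, averaged 113 ± 59.0 CPM in serosal and 129 ± 35.9 CPM in visceral lines (SD, n = 5 and 4).

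Msln, which pancreatic tumor cells also make, held most of the summed CPM of mesothelial cell markers. The list summed to 737 CPM in M28 with Msln at 698 CPM, and to 291 CPM in M10 with Msln at 290 CPM. The other markers were thus not equally low in all lines. Of the 11 listed mesothelium markers 5 passed the count filter, 1 had no count in any line, and the list summed to 291 to 732 CPM in serosal lines and 557 to 737 CPM in visceral lines, mostly Msln. Among 10 integrins tested, 8 log2 fold changes were positive and 2 negative, with a median of 0.12 and none at an unadjusted p under 0.05. Of 18 basement membrane genes, 1 was higher at that level and 2 were lower (background 1.86% and 1.2%). Col4a6, a collagen IV chain, had 1.17, 0.156, 6.79, 3.76 and 0.0190 CPM in M6, M10, M3P, M15 and M29, against at most 0.478 CPM in visceral lines. Agrn and Col18a1, which encode the heparan sulfate proteoglycan agrin and collagen XVIII, had log2 fold changes of -0.48 and -0.57.

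Classical subtype genes leaned to higher levels in serosal lines. Of 23 members tested, 20 had a positive log2 fold change and 3 a negative one, with a median of 0.62. Over all genes tested the median was 0.01 and 51.1% were positive. The median was 0.60 for peritoneal and 0.77 for diaphragm lines against visceral lines, and 0.71 within mice. It was positive under all 25 alternatives, from 0.18 to 0.98. None was called (background 0%), and 3 were at an unadjusted p under 0.05, all higher (background 1.86%). The summed CPM of the list overlapped between classes. It was 2337, 1941, 1785, 2709 and 3868 in M6, M10, M3P, M15 and M29, against 1498, 2710, 1607 and 3008 in M1, M28, M16 and M30. The list was chosen with earlier results of these data known.

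Vil1, the gene of villin, which bundles actin in microvilli, had 250, 149, 151, 204 and 213 CPM in M6, M10, M3P, M15 and M29, against 107, 147, 129 and 132 CPM in M1, M28, M16 and M30. The classes were apart by a narrow margin between M10 and M28. Its log2 fold change was 0.59 ± 0.19 (SE, edgeR adjusted p = 1). Krt20, a keratin of differentiated gut epithelium, had 95.0, 77.8, 44.6, 87.8 and 90.2 CPM in the serosal lines in that order, against 33.96, 63.5, 41.2 and 35.3 CPM in the visceral lines. M3P lay below M28, and the log2 fold change was 0.86 ± 0.26 (SE, edgeR adjusted p = 1). Lypd8, a secreted protein that keeps bacteria off the colon epithelium, had 30.6, 18.8 and 12.3 CPM in M6, M15 and M29 and 0.805 and 2.74 CPM in M10 and M3P, against 0.244 to 4.18 CPM in visceral lines.

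Hnf4a, a transcription factor of gut and liver epithelium, averaged 128 ± 43.8 CPM in serosal and 83.7 ± 29.4 CPM in visceral lines (SD, n = 5 and 4), with a log2 fold change of 0.61 ± 0.31 (SE, edgeR adjusted p = 1). Muc13 and Anxa10, a mucin and an annexin of gut-type epithelium, had log2 fold changes of 2.48 and 1.79 with overlapping classes. Muc13 reached 42.7 CPM in M6, without which its value was 1.24. Anxa10 reached 132 CPM in M10 and 76.9 CPM in M29, and its value was 0.931 without M10. These 3 members were chosen after their values were seen.

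Wnt targets and regulators leaned the other way. Of 14 tested, 10 log2 fold changes were negative, with a median of -0.36 that was negative under all 25 alternatives, from -0.61 to -0.20. None was called, and 2 were at an unadjusted p under 0.05, both lower (background 1.2%). These were the ligands Wnt7a and Wnt7b. Wnt7a had 3.41, 3.51, 3.62, 6.92 and 19.6 CPM in M6, M10, M3P, M15 and M29, against 13.5, 19.9, 15.9 and 20.1 CPM in M1, M28, M16 and M30. M29 was the one serosal line in the visceral range. Wnt7b averaged 108 ± 30.03 CPM in serosal and 168 ± 58.9 CPM in visceral lines (SD, n = 5 and 4), with a log2 fold change of -0.64. The medium supplied R-spondin, a Wnt agonist, to every line.

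Interferon response genes were all positive but depended on 1 library. All 17 tested members had a positive log2 fold change, with a median of 0.91. Without M15 the median was 0.034. Oasl1, an antiviral gene, had 22.5, 29.2, 3.62, 33.8 and 11.8 CPM in M6, M10, M3P, M15 and M29, against 7.41, 5.12, 12.1 and 6.91 CPM in M1, M28, M16 and M30. It was the only member at an unadjusted p under 0.05, higher in serosal lines (background 1.86%, edgeR adjusted p = 1). Stat2, which carries the interferon signal, had 29.6 CPM in M15 and 4.22 to 7.13 CPM in the other serosal lines, against 6.06 to 10.5 CPM in visceral lines. Irf7, a factor that drives interferon genes, had 21.2 CPM in M15 and 1.63 to 6.68 CPM in the other serosal lines, against 2.17 to 6.02 CPM in visceral lines. Both were chosen after their values were seen, and M15 is the library with 72.7% ribosomal RNA counts, whose part in these values was not tested.

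Nrf2 and glutathione genes, which serve the oxidative stress response, had 17 positive and 3 negative log2 fold changes with a median of 0.57. The median was 0.80 for peritoneal lines and -0.11 for diaphragm lines. Slc7a11, the cystine importer, had 243, 620, 180, 118 and 134 CPM in M6, M10, M3P, M15 and M29, against 130, 76.7, 81.9 and 137 CPM in M1, M28, M16 and M30. Gsta3, a glutathione transferase, had 142, 66.4 and 99.4 CPM in M6, M10 and M3P and 12.1 and 24.6 CPM in M15 and M29, against 10.0 to 47.3 CPM in visceral lines. Gsta2 had 15.4 CPM in M10 and at most 2.13 CPM in the other serosal lines, against at most 1.58 CPM in visceral lines. Without M10 the log2 fold change was 0.67 for Slc7a11 and 0.61 for Gsta2, against 1.28 and 2.06 with it. Gsta2 and Gsta3 belong to a family of similar genes among which reads can be shared.

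Pancreatic duct genes had 11 positive and 3 negative log2 fold changes, with a median of 0.40, of 0.35 for peritoneal and of 0.21 for diaphragm lines. None was called, and Aqp5 was the 1 member at an unadjusted p under 0.05, lower in serosal lines (background 1.2%). On log2(TPM + 1), where the median of all genes was -0.365, the median of the duct genes was -0.15. Chemokines, cytokines and their receptors had 11 positive and 5 negative, with a median of 0.46, of 0.73 for peritoneal and of -0.17 for diaphragm lines. Cell cycle genes had 21 of 26 log2 fold changes negative at a median of -0.10. The median of 20 hypoxia and glycolysis genes was 0.14, with -0.29 for peritoneal and 0.55 for diaphragm lines. The median of 11 gastric mucosal genes was 0.25, with -0.67 for peritoneal and 0.88 for diaphragm lines. The 6 tested genes of mesenchymal transition had a median of -0.15, and the other 10 listed genes, Snai1, Zeb1 and Zeb2 among them, were below the count filter. Over 27 lists, 0 members were called. Members at an unadjusted p under 0.05 outside those described included Csf3, Skil, Ltbp2, Herpud1, Impact and the acinar marker Bhlha15. Skil, a repressor of TGF-beta signals, and Ltbp2 had log2 fold changes of 0.58 and 2.13. The imprinted gene Impact had -0.57. Csf3, the granulocyte growth factor, had -1.33, and Herpud1, a gene of endoplasmic reticulum stress, 0.67.

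**Figure D5:**
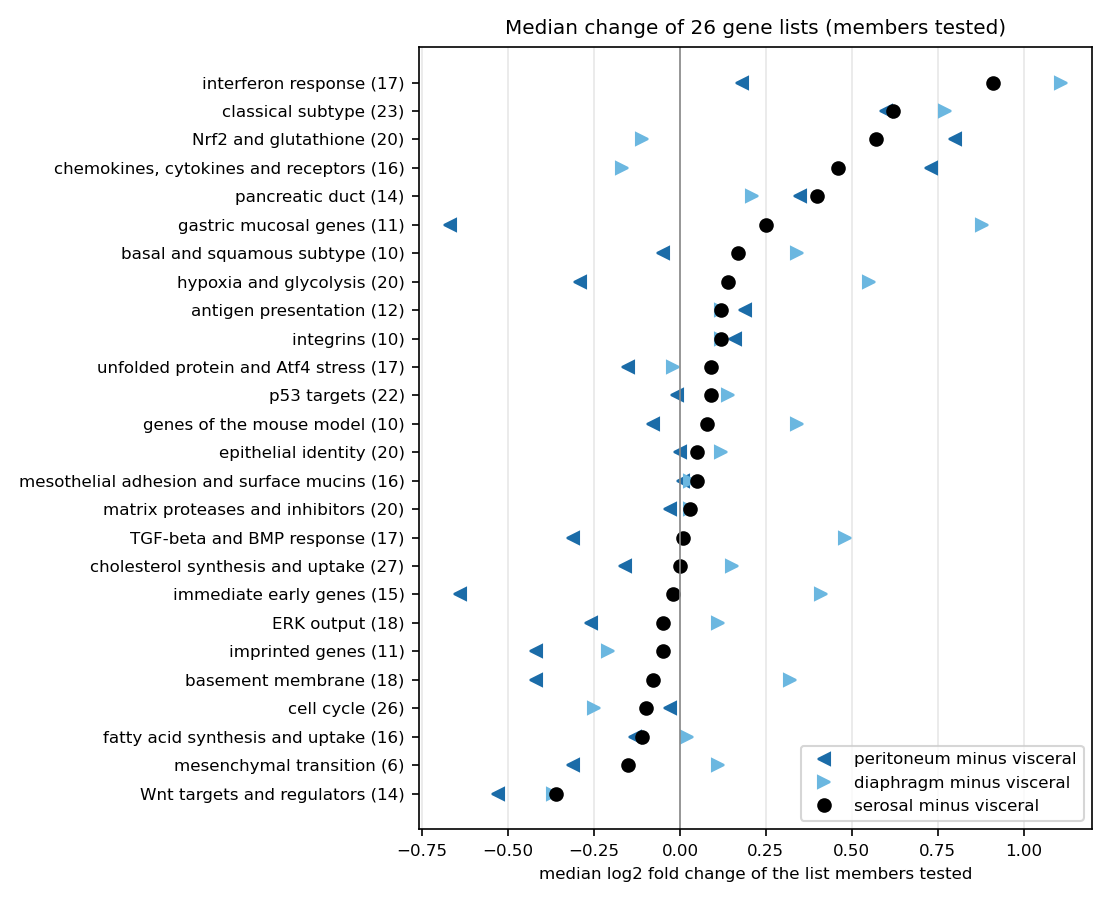
Median log2 fold change (x axis) of the tested members of 26 gene lists (y axis, number tested in brackets) for serosal minus visceral lines and separately for peritoneal and diaphragm lines minus visceral lines. Classical genes, at 0.62, lie to the right and Wnt genes, at -0.36, to the left for both sites, whereas Nrf2 genes lie at 0.80 for peritoneal and -0.11 for diaphragm lines.

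The serosal sites were also compared separately, and no gene passed the threshold over all 9 lines. In 1 fit with separate terms for both sites, 0 genes were called for peritoneum against visceral lines (0%), with 1346 (8.74%) at an unadjusted p under 0.05. There were 0 called for diaphragm against visceral lines (0%), with 251 (1.63%) at that level. Diaphragm against peritoneum had 0 called (0%) and 1323 (8.59%) at that level. The first 2 of these comparisons share the visceral lines, and the fit had no term for mouse. M15 shares mouse 5 with M16, and M29 shares mouse 6 with M28 and M30. No peritoneal line shares a mouse with a visceral line. The numbers of genes for peritoneum and diaphragm are therefore not like for like, and do not show which site lies closer to the visceral lines. Without M29, Hist1h2ad and Gm28048 were called lower for diaphragm against visceral lines, and without M1, Bche was called higher for peritoneum against visceral lines. Peritoneal lines came from mice 2, 3 and 4 and diaphragm lines from mice 5 and 6, so a difference between sites and one between mice cannot be told apart.

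Aqp5, a water channel of secretory epithelium, had the lowest p for peritoneum against visceral lines. It had 74.1, 103 and 163 CPM in M6, M10 and M3P and 455 and 565 CPM in M15 and M29, against 630, 900, 628 and 782 CPM in M1, M28, M16 and M30. Every peritoneal line was below every diaphragm line and every diaphragm line below every visceral line. The log2 fold change was -2.70 for peritoneum (edgeR adjusted p = 0.115) and -0.53 for diaphragm. Mtus2, a microtubule-associated gene chosen after its values were seen, had 0.0975, 0 and 0.0238 CPM in M6, M10 and M3P and 5.52 and 17.6 CPM in M15 and M29, against 6.05 to 17.9 CPM in visceral lines. Its edgeR adjusted p for peritoneum against visceral lines was also 0.115. Agrn had 97.4, 99.5 and 101 CPM in the peritoneal lines and 178 and 156 CPM in M15 and M29, against 164 to 188 CPM in visceral lines.

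Within mice 5 and 6 the comparison holds the animal fixed. The fit with a term for each mouse called 0 genes (0%), with 443 (2.88%) at an unadjusted p under 0.05 and a lowest edgeR adjusted p of 0.858. Its class term rests on M15 against M16 in mouse 5 and on M29 against M28 and M30 in mouse 6. M15 is the library with 72.7% ribosomal RNA counts. The degrees of freedom of this fit were few, with a moderated median of 5.94 against 10 in the main fit. Alpi, intestinal alkaline phosphatase, which was chosen after its values were seen, had 4.11 CPM in M15 against 0.279 CPM in M16, and 76.3 CPM in M29 against 10.6 CPM in M28 and 12.8 CPM in M30. Its within-mouse log2 fold change was 3.06 ± 0.31 (SE), and across all 9 lines it was 1.67 ± 1.65. The peritoneal lines of other mice ran from 0.0447 to 12.8 CPM, and M1 had 0.277 CPM.

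Genes of the mouse model and of sterol storage overlapped between classes. Trp53 averaged 53.4 ± 7.42 CPM in serosal and 54.3 ± 8.03 CPM in visceral lines, and Cdkn2a 57.4 ± 11.6 CPM in serosal and 63.4 ± 14.1 CPM in visceral lines. Myc averaged 60.7 ± 10.4 CPM in serosal and 53.6 ± 12.4 CPM in visceral lines, and Smad4 59.0 ± 7.89 CPM in serosal and 53.9 ± 5.57 CPM in visceral lines. Soat1, which esterifies cholesterol, averaged 201 ± 47.3 CPM in serosal and 167 ± 28.8 CPM in visceral lines (SD, n = 5 serosal and 4 visceral lines for all of these). Their 95% intervals lay between -0.58 and 0.70 on the log2 scale. The direction turned under 7 of 25 alternatives for Trp53 and 2 of 25 for Cdkn2a. For Myc, Smad4 and Soat1 it turned only on log2(TPM + 1), where the median of all genes was -0.365. Car9, a carbonic anhydrase induced by low oxygen, had 1.07, 0.291 and 0.214 CPM in M6, M10 and M3P and 53.9 and 12.8 CPM in M15 and M29, against 4.03 to 13.9 CPM in visceral lines. The peritoneal lines were below and M15 above the visceral range, and the class log2 fold change of 0.38 ± 1.34 (SE) turned negative without M15.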

How the data were processed

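RNA of 9 metastasis organoid lines was analysed, from total RNA depleted of ribosomal RNA, per the labels' protocols. Per the submitters' processing notes, FastQC 0.11.8, STAR 2.6.0c and RSEM 1.3.1 were used with build GRCm38.p6. Per the file headers, the deposited gene tables hold expected counts, which RSEM estimates by sharing ambiguous reads among genes, and TPM, transcript abundance that the authors' software scaled to the same sum in each library. The strand setting of the counting was not given in the sources used here, so overlapping antisense genes are uncertain.

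Expected counts were rounded. Of 55487 identifiers, 55394 were matched to GENCODE M21. Classes were compared with the quasi-likelihood test of edgeR 4.0.16 in R 4.3.3 with TMM factors, filterByExpr by class and a class term over the 9 lines, with Benjamini-Hochberg adjustment over all 15407 genes. CPM use TMM-scaled library sizes. Groups came from the site labels and mice from the mouse labels. Single values were compared by an exact two-sided permutation test over all assignments of lines to classes, in scipy 1.17.1. Because the mouse labels pair lines by animal, a fit with a term for each mouse was also made. As a check, deviations from class means correlated at 0.513, 0.536 and 0.441 between the same-mouse pairs M15 and M16, M29 and M28, and M29 and M30. The same-mouse pair M28 and M30, of 1 class, had 0.231. Alternatives used RLE factors, other filters, the robust option, removal or a covariate of ribosomal RNA, DESeq2 1.42.0, limma 3.58.1 with mouse as a random effect (consensus correlation 0.589) or on log2(TPM + 1), counts summed per mouse and class, 1 site, and each line or mouse left out.

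Members and gene lists were chosen with earlier results of these data known. Named genes were up to 12 per direction past the threshold with classes fully apart, at least 1 CPM in the higher class and no predicted-model symbol. As none passed the threshold, genes with these properties and the lowest unadjusted p took the places. Up to 3 members per list and 10 genes of the model, adhesion and sterol storage were added. Some genes named by this rule are not reported here. The 95% intervals of fold changes use the moderated degrees of freedom. Scripts were tested on simulated data.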

Additional observations from a re-analysis of the deposited data

Results flagged for a closer look

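In groups of 4 or 5 lines, the highest or lowest line was set against the range of its group. Over 140 groups of values, 20 had a line that stood far from the others. For values with a normal spread, chance flags about 1 in 20 groups. CPM need not follow that spread, and some of the genes were chosen after their values were seen. No excess over chance is therefore read from this number. M15 was the line that stood out in 7 of the 20.

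M15 had the fewest expected counts of the serosal lines (24620000 to 4 digits), 72.7% of them in the 3 genes linked to ribosomal RNA, and 18880 genes with a count (to 4 digits). It also had the highest serosal Cd44 (217.5 CPM), Car9 (53.9 CPM), Stat2 (29.6 CPM) and Irf7 (21.2 CPM).

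M10 had the highest serosal Rnf152 (9.28 CPM), Slc7a11 (619.6 CPM) and Gsta2 (15.4 CPM). M29 had the highest serosal Msln (701.8 CPM), Wnt7a (19.6 CPM) and Alpi (76.3 CPM), and M3P the highest Calml4 (37.1 CPM). Among visceral lines, M1 had the highest Icmt (70.5 CPM) and Cdkn2a (84.4 CPM). M16 had the highest visceral Slfn5 (2.09 CPM) and Col4a6 (0.478 CPM), and M30 the highest Gsta3 (47.3 CPM) and Gsta2 (1.58 CPM).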

How the results depend on the processing

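The count of 0 genes for serosal against visceral lines held under all 25 alternatives except DESeq2, which called 2, Sult1b1 and Papss2. With the replicate block, a term for each mouse, the count was also 0. Leaving out 1 line gave 0 to 1 genes for peritoneum and 0 to 2 for diaphragm against visceral lines. The exceptions were Bche without M1, and Hist1h2ad and Gm28048 without M29, where the lone diaphragm line is assumed to vary like the other groups. The number at an unadjusted p under 0.05 was 1046 with no filter on low counts and 294 on log2(TPM + 1), against 472. For diaphragm against visceral lines it was 1261 without M29, 509 without M30, 131 without M15 and 132 without M1, against 251. For peritoneum against visceral lines it was 855 without M10 and 880 without M28, against 1346, and for diaphragm against peritoneum 872 without M15, against 1323. The difference in ribosomal RNA share ranged from 7.63 (without M15) to 25.8 (without M29) percentage points when 1 line was left out.

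Of 66 genes, 12 turned direction under at least 1 alternative, and the cause was not tested. Log2(TPM + 1), which shifts the median of all genes by -0.365, gave Myc -0.205, Smad4 -0.246, Soat1 -0.165, Car9 -1.32, Cdhr2 -0.14, Stat2 -0.233 and Irf7 -0.034. The same values centred on each library's median gene, an alternative chosen after seeing the data, gave Car9 -0.952. The replicate block gave Cdkn2a 0.136, Cd44 0.0062 and Gsta3 -0.068. The ribosomal RNA share as a covariate gave Trp53 0.060, Car9 -1.13, Stat2 -0.572 and Irf7 -0.469. Mouse as a random effect gave Car9 -0.951. Without mouse 5, Trp53 was 0.059, Car9 -1.49 and Stat2 -0.261. Peritoneal lines alone gave Trp53 0.096, Car9 -4.30, Alpi -0.366, Cdhr2 -0.338, Stat2 -0.509 and Irf7 -0.065. Diaphragm lines alone gave Cd44 0.268 and Gsta3 -0.151.

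With 1 line left out, the log2 fold change ranged from -0.121 to 0.022 for Trp53, -0.241 to 0.013 for Cdkn2a, -0.591 to 0.0069 for Cd44 and -1.49 to 0.712 for Car9. It ranged from -0.405 to 2.37 for Alpi, -0.215 to 0.755 for Cdhr2, -0.431 to 0.614 for Stat2 and -0.130 to 1.29 for Irf7. The chromosome 19 median ranged from -0.250 to 0.0195.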

Other observations

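Genes of the enterocyte brush border, the microvillar surface of absorptive gut cells, were gathered after their values were seen, so they carry no test. Of 34 such genes, 26 passed the count filter, and 25 of these had a positive serosal over visceral log2 fold change. The median was 0.90 over all lines, 0.78 for peritoneal and 1.17 for diaphragm lines, and 1.13 within mice. No member was called, and 13 were at an unadjusted p under 0.05, all higher (background 1.86%), from which nothing is read since the genes were picked on these values. Ces2c, an intestinal carboxylesterase, had 11.8, 4.25, 4.43, 3.40 and 12.6 CPM in M6, M10, M3P, M15 and M29, against 0.163, 1.73, 0.120 and 2.37 CPM in M1, M28, M16 and M30. Abcb1a, a drug efflux pump, had 57.3, 9.97, 29.2, 30.4 and 29.2 CPM in the serosal lines in that order, against 3.04, 10.5, 14.8 and 10.3 CPM in the visceral lines, with M10 in the visceral range. Myo1a and Anks4b, which build microvilli, had log2 fold changes of 1.68 and 0.89. Cdhr2, a cadherin that links microvilli, and Prap1 had 0.46 and 1.40 over all lines and 1.14 and 2.54 within mice.

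Genes of sulfate activation and transfer were gathered in the same way around Sult1b1 and Papss2. Of 18 tested, 9 had a positive and 9 a negative log2 fold change, with a median of 0.09. Sult1b1 and Papss2 were the 2 members higher at an unadjusted p under 0.05 (background 1.86%) and Tpst2 the 1 lower (background 1.2%).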
